A study of Rattus norvegicus with 13 samples.

Results

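Collagen genes were followed across cultured rat skin-derived precursors (SKPs) of facial, dorsal and ventral origin and in cultured mesenchymal stromal cells (MSCs). Members were all genes with an annotation symbol made of Col, a type number, the letter a and a chain number, with probe sets that carried exactly 1 symbol. This gave 27 probe sets for 25 genes, of 14506 genes in all, and the probe set with the highest mean over the arrays stood for a gene. The RefSeq gene table holds 44 such symbols for the rat, so 19 collagen genes, among them Col4a2, Col6a1, Col6a2, Col6a3, Col15a1 and Col18a1, were not analysed here. The 13 arrays, of the Affymetrix Rat Gene 1.0 ST type, held 3 isolates of facial SKPs, 3 of dorsal trunk SKPs, 3 of ventral trunk SKPs and 4 of MSCs. Every isolate came from adult Sprague Dawley rats and had been passaged 2 times, with no further treatment named in the labels. SKPs are sphere-forming precursors grown from dermis, and MSCs are another adult mesenchymal culture. For the MSC tissue, the culture media and the number of rats behind an isolate, the sources used here give nothing. The series title asks whether such a precursor arises alike in skin of different embryonic origin. All values are log2 expression values, so a difference of 1 is a change of 2-fold, and levels of different genes are not set against each other because probes differ in brightness.

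Collagens are trimeric proteins of the extracellular matrix, built from alpha chains whose helical part repeats glycine at a regular spacing. Fibrillar collagens form the tensile fibres of dermis, bone and cartilage, and FACIT collagens (fibril-associated collagens with interrupted helices) coat those fibres. Network collagens form sheets, such as collagen IV in basement membranes and collagen VIII and X in short-chain lattices. Collagen VII builds the anchoring fibrils that tie the epidermal basement membrane to the dermis, and the transmembrane collagens XIII, XVII and XXIII sit in the cell surface. The members comprised 10 fibrillar, 5 FACIT, 3 basement membrane network, 2 short-chain network, 1 anchoring fibril, 1 beaded filament and 3 transmembrane genes. Each of the 25 lay, on average, above background in all 4 groups, where background was the 95th percentile of 1281 chemoreceptor genes (3.94 in facial SKPs, 3.97 in dorsal SKPs, 3.90 in ventral SKPs and 4.02 in MSCs).

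The promoters of 5 called genes with large differences are shown to place the findings in the genome. Of the 25 genes, 20 had an entry in the RefSeq promoter table (build GRCr8, 250 bases before to 50 bases after the start), and Col1a1, Col2a1, Col3a1, Col12a1 and Col14a1 had none. Col7a1 and Col23a1 were higher in SKPs of every region, Col11a1 and Col5a1 were lower, and Col17a1 was higher in ventral SKPs. Capitals mark the motifs searched on both strands: the GC box GGGCGG, the CCAAT box CCAAT, the TATA box TATAAA and the AP-1 motif TGANTCA. The windows read 5′ to 3′ on the strand of the gene.
Col7a1, chr8:118483114-118483413, plus strand: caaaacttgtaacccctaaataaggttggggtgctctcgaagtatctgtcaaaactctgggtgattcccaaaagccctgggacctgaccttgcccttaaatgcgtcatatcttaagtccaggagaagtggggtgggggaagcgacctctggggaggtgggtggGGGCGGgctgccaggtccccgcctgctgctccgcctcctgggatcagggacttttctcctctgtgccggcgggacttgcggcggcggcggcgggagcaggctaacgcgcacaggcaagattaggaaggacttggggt
Col23a1, chr10:36050077-36050376, plus strand: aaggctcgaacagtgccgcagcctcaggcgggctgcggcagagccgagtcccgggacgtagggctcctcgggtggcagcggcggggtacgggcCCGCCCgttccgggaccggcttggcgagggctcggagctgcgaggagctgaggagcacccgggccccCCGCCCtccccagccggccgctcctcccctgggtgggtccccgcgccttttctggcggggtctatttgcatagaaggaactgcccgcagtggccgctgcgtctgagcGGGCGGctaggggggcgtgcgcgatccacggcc
Col11a1, chr2:204508886-204509185, plus strand: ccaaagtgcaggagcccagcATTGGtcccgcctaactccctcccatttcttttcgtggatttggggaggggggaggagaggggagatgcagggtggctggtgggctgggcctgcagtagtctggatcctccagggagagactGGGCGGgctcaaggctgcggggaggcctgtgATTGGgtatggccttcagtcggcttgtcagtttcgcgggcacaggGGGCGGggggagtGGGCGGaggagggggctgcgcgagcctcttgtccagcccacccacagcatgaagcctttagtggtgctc
Col5a1, chr3:31606630-31606929, plus strand: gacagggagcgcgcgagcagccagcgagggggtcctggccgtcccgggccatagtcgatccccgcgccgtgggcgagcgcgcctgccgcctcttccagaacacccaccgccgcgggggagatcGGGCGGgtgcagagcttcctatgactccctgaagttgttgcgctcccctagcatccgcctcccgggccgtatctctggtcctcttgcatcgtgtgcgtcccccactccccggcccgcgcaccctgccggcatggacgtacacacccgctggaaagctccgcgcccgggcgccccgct
Col17a1, chr1:256518808-256519107, minus strand: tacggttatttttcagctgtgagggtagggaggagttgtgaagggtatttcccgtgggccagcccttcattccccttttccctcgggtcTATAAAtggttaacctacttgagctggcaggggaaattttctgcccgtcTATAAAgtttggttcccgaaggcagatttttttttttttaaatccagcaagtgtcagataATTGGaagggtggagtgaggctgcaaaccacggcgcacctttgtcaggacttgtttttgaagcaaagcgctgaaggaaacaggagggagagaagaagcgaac
The GC box occurred once in the window of Col7a1 and of Col5a1, and 3 times in that of Col23a1 and of Col11a1. Col11a1 also held 2 CCAAT boxes, and Col17a1 held 2 TATA boxes and 1 CCAAT box but no GC box. Among the 20 collagen promoters, 11 (55.0%) held a GC box, against 50.2% of 11970 promoters of genes on the array. A CCAAT box stood in 7 (35.0%), against 38.3%, and a TATA box in 4 (20.0%), against 11.8%. No collagen window held the AP-1 letters, which 6.24% of all windows did, and this says only that these letters are absent from these windows. Median GC content was 62.3% in collagen promoters and 58.0% in all promoters. Genes that were higher and genes that were lower in SKPs both carried GC boxes, and the motifs are a description of these letters, not of binding.

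Before the results, 1 SKP library and a split among MSCs need to be named. Dorsal array 3 had 12 of the 25 collagen genes at least 1 lower than the mean of dorsal arrays 1 and 2, against 5.07% of all genes, and 0 collagen genes at least 1 higher. The median over the 25 was -0.98, against -0.001 over all genes. The mean of 16 hypoxia and glycolysis genes was 10.05 on that array and at most 8.56 on dorsal arrays 1 and 2, and that of 10 cell cycle genes was 4.73, against 7.28 and 6.74. All 10 cell cycle genes were called lower in SKPs than in MSCs, with that array (12.2% of all genes) and without it (13.5% of all genes). The part of these in the collagen values was not tested. The main counts of called collagen genes below are given with and without that array. Those of the other cell type markers and of ranges are given with all arrays only. Marker counts for SKPs minus MSCs stand beside 13.1% of all genes called higher and 12.2% called lower. Among the other markers, the mean of 14 macrophage genes (6 called higher in SKPs) spanned 6.28 to 10.07 in facial, 4.42 to 7.10 in dorsal and 5.20 to 5.57 in ventral SKPs, against 4.25 to 4.87 in MSCs. That of 10 smooth muscle and pericyte genes (7 called lower) spanned 5.97 to 6.26 in SKPs and 8.58 to 9.73 in MSCs, with MSC arrays 3 and 4 (9.63 and 9.73) above MSC arrays 1 and 2 (8.58 and 8.68). The 6 keratinocyte genes measured had a mean of 3.29 to 3.54 in SKPs and 3.31 to 3.46 in MSCs. Of them Krt1, Krt10, Epcam and Tp63 were at background in every group, Krt14 stood at 4.10 to 4.68 in SKPs and 4.16 to 4.61 in MSCs, and Cdh1 spanned 3.61 to 5.95 in SKPs, highest on facial array 3, and 3.65 to 3.94 in MSCs. The 6 endothelial genes measured had 5 called higher in SKPs than in MSCs. Against MSCs, 0 of the 6 were called in facial and 0 in dorsal SKPs by limma (1, Tie1, and 0 at an unadjusted p under 0.05), and 5 were called higher in ventral SKPs (median difference 1.67, Pecam1 2.63). Of 9 SKP markers 6 were higher in SKPs and 1 was lower, and in bulk cultures fewer cells of a type and less RNA per cell cannot be told apart.

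**Figure D1:**
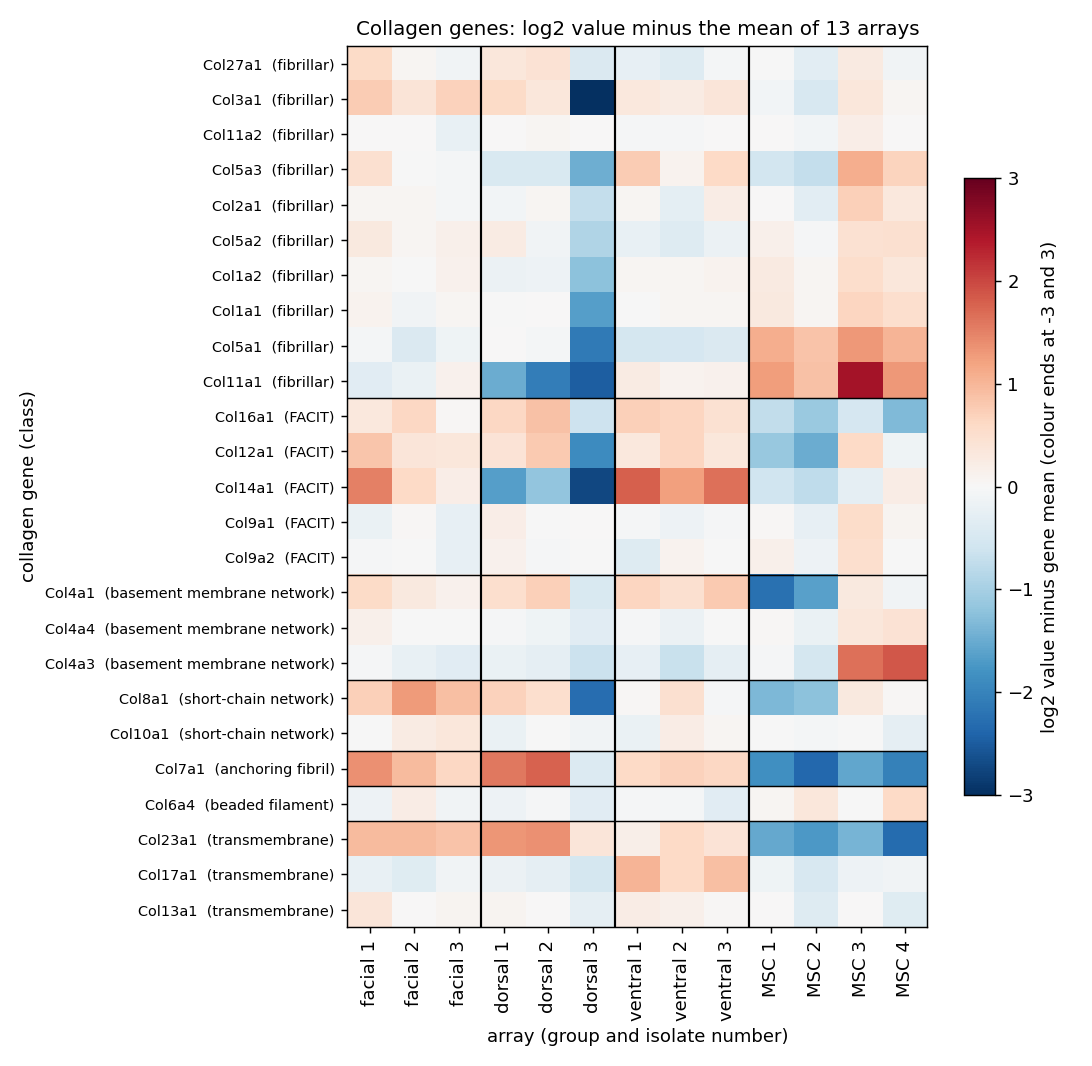
Each row is a collagen gene, each column an array, and the colour gives the log2 value minus that gene's mean over the 13 arrays, with rows grouped by class. Dorsal array 3 was at least 1 lower than the mean of dorsal arrays 1 and 2 for 12 of the 25 genes, against 5.07% of all genes. Col7a1 and Col23a1 were higher in all SKP arrays than in MSCs.

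Between SKPs (the mean of the 3 region means) and MSCs, collagens moved in both directions. The anchoring fibril gene Col7a1, the transmembrane gene Col23a1, the FACIT gene Col16a1 and the basement membrane gene Col4a1 rose. The fibrillar genes Col11a1 and Col5a1 fell. These 6 of 25 members passed an adjusted p under 0.05, by limma with Benjamini-Hochberg adjustment, against 25.3% of all genes, so the share of collagens called lay near the background. The 4 that rose compare with 13.1% of all genes called higher, and the 2 that fell with 12.2% called lower. The median difference over the 25 was -0.06, against -0.017 over all genes. Without dorsal array 3, 12 members (48.0%) were called, 8 higher and 4 lower, against 27.7% of all genes (14.3% higher and 13.5% lower). The added ones were Col3a1, Col8a1, Col12a1 and Col17a1 on the higher side and Col1a1 and Col1a2 on the lower.

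**Figure D2:**
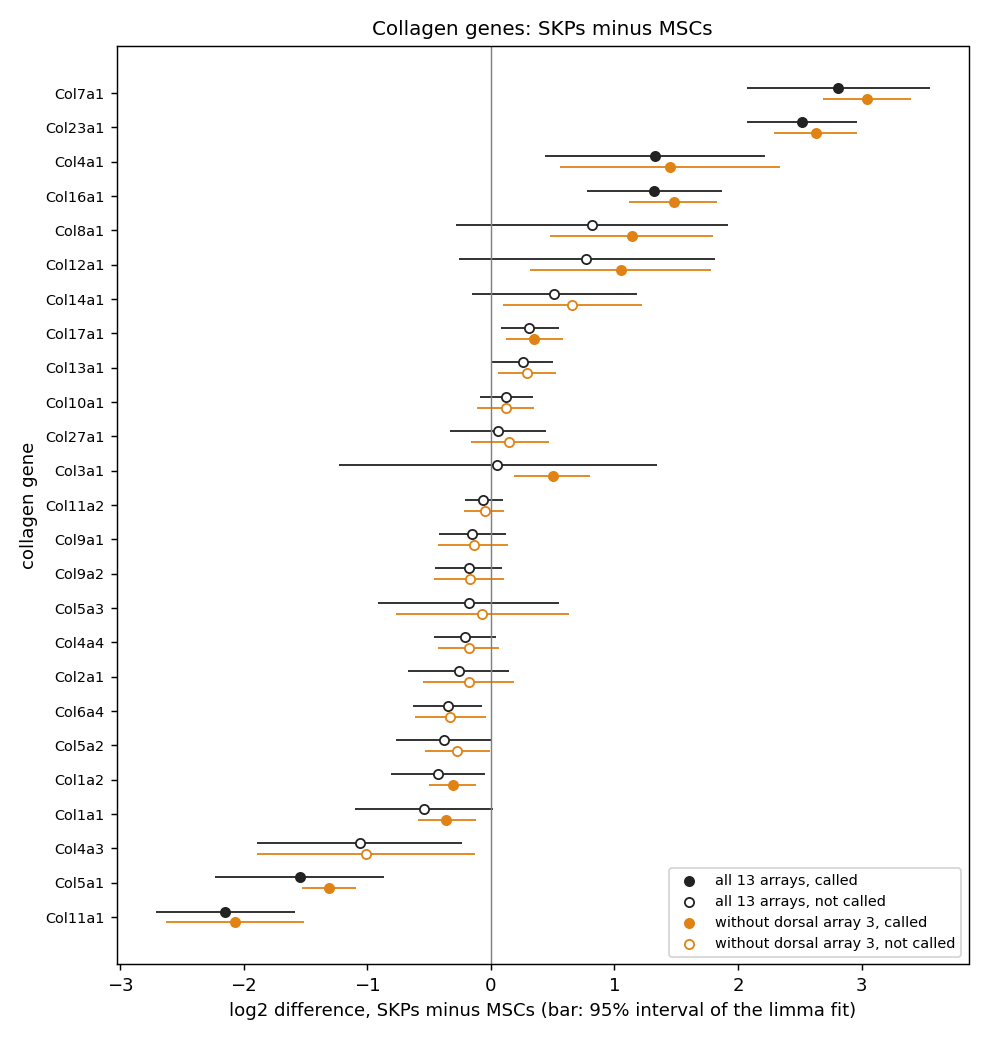
Points give the log2 difference of SKPs minus MSCs for each collagen gene and bars its 95% interval, from all 13 arrays in black and without dorsal array 3 in orange, and filled points passed an adjusted p under 0.05. Col7a1 (2.81) and Col11a1 (-2.15) lie at the ends, and the interval of Col3a1 runs from -1.23 to 1.34 with dorsal array 3 and from 0.19 to 0.80 without it.

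The fibrillar class held the chains of collagens I, II, III, V, XI and XXVII. Its 10 members included 2 that fell and 8 that were not called, against 12.2% of all genes called lower, with a median difference of -0.32 and a range of -2.15 to 0.06. Leaving out dorsal array 3 gave 4 that fell and 1 that rose, against 13.5% of all genes called lower and 14.3% called higher. Col11a1 encodes a chain of collagen XI, a minor fibrillar collagen that is best known from cartilage and sets fibril diameter. It stood at 7.36, 7.50 and 7.82 in facial SKPs, 6.21, 5.63 and 5.23 in dorsal SKPs and 7.94, 7.80 and 7.82 in ventral SKPs, against 8.95, 8.58, 10.19 and 8.99 in MSCs. Every SKP array lay below every MSC array, and dorsal arrays lay lowest. Its difference was -2.15 (SE 0.26, adjusted p = 9.67e-05), a 4.42-fold decrease.

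Col5a1 encodes a chain of collagen V, which is laid down inside collagen I fibrils and helps to start them. Its values were 9.11, 8.73 and 9.05 in facial SKPs, 9.19, 9.11 and 7.06 in dorsal SKPs and 8.64, 8.66 and 8.73 in ventral SKPs, against 10.26, 10.03, 10.48 and 10.19 in MSCs. No SKP array reached the lowest MSC array. It fell by 1.54 (SE 0.31, adjusted p = 0.0034) with all arrays and by 1.31 (SE 0.10, adjusted p = 3.94e-06) without dorsal array 3. The partner chains of collagen V were not called: Col5a2 had a difference of -0.38 (95% interval -0.77 to 0.01) and Col5a3 one of -0.18 (-0.91 to 0.55). Col5a3 was uneven within MSCs, at 7.36, 7.18, 9.0 and 8.56, with arrays 3 and 4 above arrays 1 and 2.

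Col1a1 and Col1a2, the chains of collagen I and the bulk of dermal and bone fibres, were not called with all arrays. Col1a1 stood at 13.33, 13.12 and 13.29 in facial SKPs, 13.22, 13.25 and 11.59 in dorsal SKPs and 13.21, 13.29 and 13.29 in ventral SKPs, against 13.52, 13.28, 13.88 and 13.73 in MSCs. Its difference was -0.54 (SE 0.26, adjusted p = 0.156) with all arrays and -0.36 (SE 0.11, adjusted p = 0.0276) without dorsal array 3. Col1a2 followed with -0.43 (SE 0.17, adjusted p = 0.0946) and -0.31 (SE 0.09, adjusted p = 0.0193). Both genes lay near the highest value in the table, 14.06. In dorsal SKPs alone Col1a2 fell against MSCs (-0.82, SE 0.22, adjusted p = 0.0243), by 0.47 without dorsal array 3 (adjusted p = 0.0241), although leaving out MSC array 3 (0.0586) or MSC array 4 (0.0544) ended the call, and its adjusted p ran from 0.0165 to 0.123 in the alternatives.

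Col3a1 encodes collagen III, which mixes with collagen I in skin and vessel walls. It stood at 12.82, 12.44 and 12.74 in facial SKPs, 12.62, 12.40 and 8.51 in dorsal SKPs and 12.36, 12.30 and 12.41 in ventral SKPs, against 11.97, 11.57, 12.40 and 12.11 in MSCs. Dorsal array 3 was 16-fold below the mean of the other dorsal arrays, the widest gap of any collagen gene. With it the difference was 0.05 (SE 0.59, adjusted p = 0.959), and without it Col3a1 rose by 0.50 (SE 0.14, adjusted p = 0.0209). In facial SKPs against MSCs it rose by 0.65 without that array (SE 0.17, adjusted p = 0.0193), where a smaller estimate of the spread decides the call, since the facial and MSC values are the same in both fits. Its neighbour on chromosome 9, Col5a2, did not share the gap in size: 11.60, 11.26 and 10.45 on the dorsal arrays.

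Of the collagens tied to cartilage, most were not called, and over all genes 25.3% were called. Col2a1, the main collagen of cartilage, had a difference of -0.26 (95% interval -0.67 to 0.15) and Col11a2, its partner in cartilage fibrils, one of -0.06 (-0.21 to 0.10). The FACIT genes of cartilage, Col9a1 (-0.15, -0.42 to 0.12) and Col9a2 (-0.18, -0.45 to 0.09), and the hypertrophic cartilage gene Col10a1 (0.12, -0.09 to 0.34) were not called either. Col10a1 lay between 4.11 and 4.65 in SKPs and between 4.05 and 4.30 in MSCs, close to background. Col27a1, a fibrillar collagen of growth plate cartilage, had a difference of 0.06 (-0.33 to 0.45). Among these genes of cartilage, the 1 called was Col11a1, which other mesenchymal cells also make.

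Of the 3 FACIT genes outside cartilage, 1 rose with all arrays (13.1% of all genes did). Another rose only without dorsal array 3 (14.3% of all genes). Col16a1, which associates with dermal fibrillin and collagen fibrils, stood at 8.34, 8.65 and 8.05 in facial SKPs, 8.64, 8.91 and 7.40 in dorsal SKPs and 8.73, 8.68 and 8.48 in ventral SKPs, against 7.29, 6.92, 7.51 and 6.71 in MSCs. Only dorsal array 3 overlapped with MSCs. It rose by 1.32 (SE 0.25, adjusted p = 0.00201), and by 1.48 (SE 0.16, adjusted p = 5.17e-05) without that array. Col12a1, which crosslinks neighbouring fibrils under tension, stood between 10.84 and 11.34 on all facial, ventral and the other dorsal arrays and at 8.62 on dorsal array 3, against 9.39, 9.02, 11.12 and 10.39 in MSCs. Its difference was 0.77 (SE 0.47, adjusted p = 0.279) with all arrays and 1.05 (SE 0.33, adjusted p = 0.0355) without dorsal array 3. Col14a1, a further fibril coat of dermis, was not called over the regions together (0.51, SE 0.30, adjusted p = 0.261) and is taken up with the regions.

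Col7a1, the single chain of anchoring fibrils, had the largest collagen difference. Its values were 9.53, 9.11 and 8.77 in facial SKPs, 9.74, 9.93 and 7.74 in dorsal SKPs and 8.75, 8.84 and 8.79 in ventral SKPs, against 6.31, 5.81, 6.60 and 6.13 in MSCs. All 9 SKP arrays lay above all 4 MSC arrays, dorsal array 3 included. It rose by 2.81 (SE 0.34, adjusted p = 9.06e-05), which is 7.01-fold. The difference was 2.93 in facial, 2.92 in dorsal and 2.58 in ventral SKPs, each called against the same MSCs. Keratinocytes are a known source of collagen VII in skin. The values of the 6 keratinocyte markers are given above, Cdh1 on facial array 3 included, and their part in the Col7a1 difference was not tested.

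Col23a1, a transmembrane collagen whose ectodomain can be shed, rose by 2.52 (SE 0.20, adjusted p = 4.06e-06), or 5.72-fold. It stood at 9.37, 9.37 and 9.28 in facial SKPs, 9.75, 9.80 and 8.78 in dorsal SKPs and 8.60, 9.02 and 8.83 in ventral SKPs, against 6.88, 6.70, 7.03 and 6.12 in MSCs. The lowest SKP array was ventral array 1, still above the highest MSC array. Of the other transmembrane genes, Col13a1 had a difference of 0.26 (95% interval 0.01 to 0.50, adjusted p = 0.119) and Col17a1 one of 0.31 (0.08 to 0.55, adjusted p = 0.0516). Col17a1 passed without dorsal array 3 (0.35, SE 0.10, adjusted p = 0.0278), and its regions differed, as described further on.

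**Figure D3:**
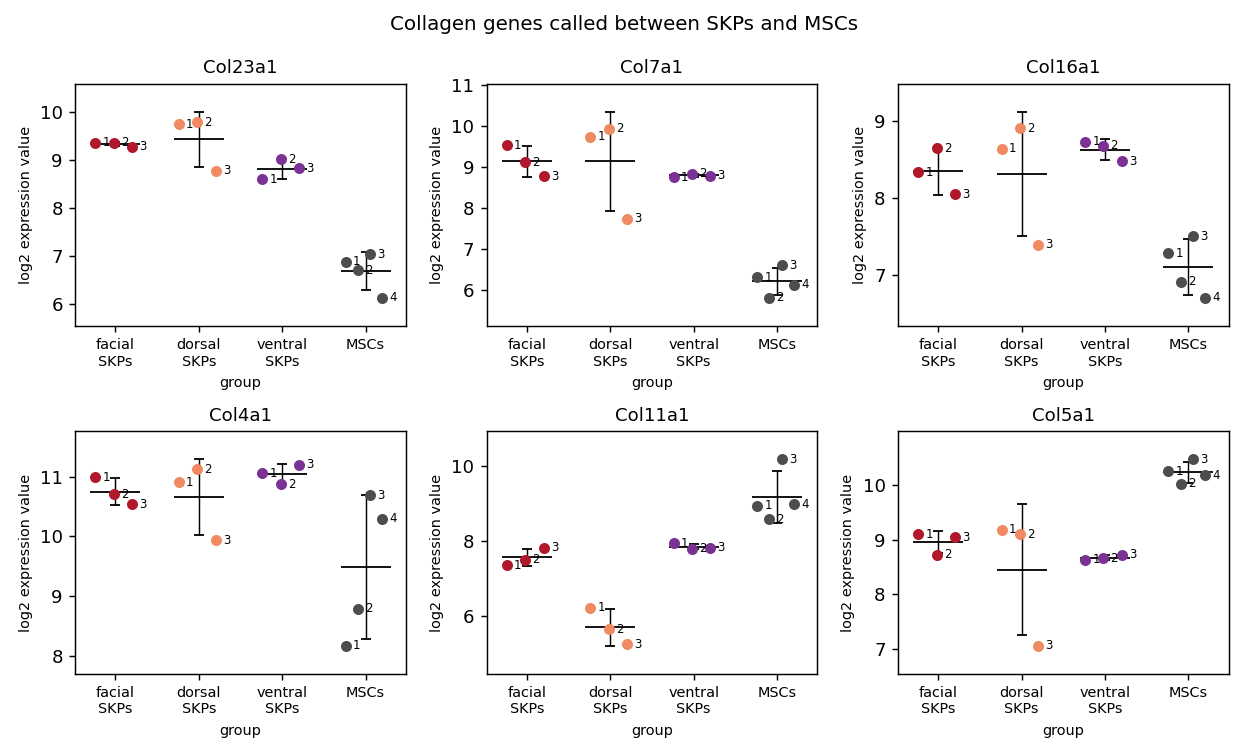
Each panel shows the log2 values of a collagen gene called between SKPs and MSCs, with a point for each array and its isolate number, a line at the group mean and bars of 1 SD (n = 3 for each SKP region, n = 4 for MSCs). Col23a1 and Col7a1 do not overlap between SKPs and MSCs, and Col4a1 splits within MSCs, where arrays 1 and 2 lie at 8.17 and 8.79 and arrays 3 and 4 at 10.69 and 10.30.

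Of the 5 basement membrane and short-chain network genes, 1 was called with all arrays, against 25.3% of all genes, so nothing particular to the class is read from it. Col4a1, a chain of the collagen IV found in nearly all basement membranes, stood at 10.99, 10.71 and 10.54 in facial SKPs, 10.91, 11.13 and 9.94 in dorsal SKPs and 11.06, 10.88 and 11.20 in ventral SKPs, against 8.17, 8.79, 10.69 and 10.30 in MSCs. MSC arrays 3 and 4 overlapped with SKPs, and MSC arrays 1 and 2 did not. It rose by 1.33 (SE 0.41, adjusted p = 0.0316). Leaving out MSC array 1 (0.89, adjusted p = 0.104) or MSC array 2 (1.10, adjusted p = 0.108) ended the call, as did leaving out dorsal array 1 (0.052), dorsal array 2 (0.0549), facial array 1 (0.0546), ventral array 1 (0.0518) or ventral array 3 (0.0556). Over all alternatives its adjusted p ran from 0.00293 to 0.108. Endothelial cells line vessels on a basement membrane of collagen IV. Over the SKP regions together, 5 of 6 endothelial markers were also called higher, against 13.1% of all genes. Taken region by region, 5 were called higher for ventral SKPs, 0 for facial SKPs and 0 for dorsal SKPs. Col4a1 itself lay above MSCs by 1.26 in facial, 1.17 in dorsal and 1.56 in ventral SKPs, with only the ventral difference called. The part of endothelial cells in the Col4a1 difference was not tested.

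Col4a3 and Col4a4, chains of the collagen IV of kidney, lung and inner ear basement membranes, stand head to head on chromosome 9, and their promoter windows overlap by 88 bases. The window of Col4a3 is shown because the neighbours had unequal values on the same arrays, with the 88 bases that both windows share in capitals.
Col4a3, chr9:91323740-91324039, plus strand: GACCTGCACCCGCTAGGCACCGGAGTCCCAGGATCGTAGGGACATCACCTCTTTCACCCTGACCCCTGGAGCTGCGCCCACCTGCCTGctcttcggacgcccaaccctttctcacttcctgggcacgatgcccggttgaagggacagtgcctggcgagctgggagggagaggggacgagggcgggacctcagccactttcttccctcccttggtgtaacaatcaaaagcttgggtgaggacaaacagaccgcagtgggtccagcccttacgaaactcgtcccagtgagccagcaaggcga
Col4a3 stood at 5.52 to 5.82 in facial, 5.21 to 5.66 in dorsal and 5.20 to 5.61 in ventral SKPs, against 5.82, 5.34, 7.51 and 7.73 in MSCs. MSC arrays 3 and 4 thus lay above all other arrays, which the mean difference of -1.06 (SE 0.38, adjusted p = 0.061) does not show by itself. Col4a4 on MSC arrays 1 to 4 was 4.84, 4.61, 5.15 and 5.24, so arrays 3 and 4 were again the higher ones but by far less, and its difference was -0.21 (95% interval -0.46 to 0.04). The smooth muscle and pericyte marker means given above were higher on the same MSC arrays 3 and 4, and their part in these values was not tested.

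Col8a1, a chain of the short-chain network of vessel walls, varied most among the network genes. It stood at 11.58, 12.14 and 11.77 in facial SKPs, 11.57, 11.37 and 8.58 in dorsal SKPs and 10.92, 11.35 and 10.85 in ventral SKPs, against 9.52, 9.64, 11.16 and 10.91 in MSCs. MSC arrays 1 and 2 were again below arrays 3 and 4. The difference was 0.82 (SE 0.50, adjusted p = 0.28) with all arrays and 1.14 (SE 0.30, adjusted p = 0.0153) without dorsal array 3. Col6a4, a beaded filament chain, was the 1 measured member of its class, with a difference of -0.35 (95% interval -0.63 to -0.07, adjusted p = 0.0644). It had 3 probe sets with means of 5.36, 4.31 and 3.32, the last below background, and the brightest was used.

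Against the same 4 MSC arrays, 5 members were called in SKPs of every region, a count that was not made over all genes. The 3 comparisons share those MSC arrays and the fit, so their calls are not independent. In facial SKPs 5 of 25 members (20.0%) were called, against 19.0% of all genes (9.47% higher and 9.58% lower): Col7a1, Col23a1 and Col16a1 higher, and Col11a1 and Col5a1 lower. In dorsal SKPs 7 (28.0%) were called, against 16.5% (8.77% higher and 7.76% lower), with the same 3 genes higher and Col11a1, Col5a1, Col14a1 and Col1a2 lower. In ventral SKPs 8 (32.0%) were called, against 24.4% (13% higher and 11.4% lower), with Col14a1, Col17a1 and Col4a1 added to the 3 higher genes and Col11a1 and Col5a1 lower. Without dorsal array 3 the counts were 8 in facial, 6 in dorsal and 9 in ventral SKPs, against 22.7%, 15.5% and 28.1% of all genes. Facial SKPs then gained Col3a1, Col8a1 and Col14a1, although no facial or MSC value changes. Without facial array 2 the facial count was 3, and without MSC array 4 the dorsal count was 4.

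The call of Col5a1 in facial SKPs (-1.28, SE 0.40, adjusted p = 0.0435) was lost without each of the other arrays of facial SKPs, ventral SKPs or MSCs taken out in turn (0.0614 to 0.132), and with dorsal array 3 out it was 3.6e-05. That of Col16a1 in dorsal SKPs (1.21, SE 0.32, adjusted p = 0.0209) was lost without dorsal array 1 (0.0792), dorsal array 2 (0.0861), MSC array 2 (0.0521) or MSC array 4 (0.058), and ran from 0.000596 to 0.097 over the alternatives. In facial SKPs Col16a1 (1.24, SE 0.32, adjusted p = 0.0174) lost its call without facial array 2 (0.0709). The ventral call of Col4a1 (1.56, SE 0.52, adjusted p = 0.0468) was lost without 10 of the other arrays taken out in turn and ran from 0.00266 to 0.131 over the alternatives. Against MSCs, Col4a1 was also 1.26 higher in facial and 1.17 higher in dorsal SKPs, neither called. Endothelial markers were called higher in ventral SKPs only, and their part was not tested. In dorsal SKPs the call of Col5a1 (-1.79, adjusted p = 0.00927) was lost when only dorsal SKPs and MSCs were fitted (0.0706), and ran from 0.000435 to 0.0706 over the alternatives. Col7a1, Col23a1 and Col11a1 kept theirs in each region under all alternatives run.

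Between the skin regions few collagens differed, and Col14a1 differed most. Facial minus dorsal SKPs gave 2 calls of 25 (both higher, against 1.25% of all genes called and 0.793% higher), facial minus ventral SKPs gave 1 (lower, against 6.60% called and 4.36% lower) and dorsal minus ventral SKPs gave 3 (all lower, against 6.11% called and 3.76% lower). Without dorsal array 3 these were 1, 1 and 5, against 1.00%, 9.76% and 6.20% of all genes. Col14a1 stood at 11.30, 10.38 and 9.99 in facial SKPs, 8.13, 8.60 and 7.05 in dorsal SKPs and 11.57, 11.01 and 11.44 in ventral SKPs, against values of 9.01 to 9.52 on MSC arrays 1 to 3 and of 10 on MSC array 4. Dorsal SKPs lay below every MSC array and ventral SKPs above, and facial array 3 overlapped with MSCs. Dorsal minus ventral SKPs was -3.41 (SE 0.41, adjusted p = 0.000926), a 10.7-fold difference, and -2.98 (SE 0.38, adjusted p = 0.00193) without dorsal array 3. Facial minus dorsal SKPs was 2.63 (SE 0.41, adjusted p = 0.00964, and 0.154 from the arrays of those 2 regions alone), and facial minus ventral SKPs was -0.79 and not called (95% interval -1.69 to 0.12).

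Set against MSCs, Col14a1 rose in ventral SKPs (1.91, SE 0.39, adjusted p = 0.00365). In dorsal SKPs it fell (-1.50, SE 0.39, adjusted p = 0.02), a call that ended on leaving out dorsal array 3 (-1.06, adjusted p = 0.0724) or MSC array 4 (-1.31, adjusted p = 0.0557), and its adjusted p ran from 0.0129 to 0.0881 in the alternatives. Col11a1 was also lowest in dorsal SKPs. Facial minus dorsal SKPs was 1.87 (SE 0.35, adjusted p = 0.0262) and dorsal minus ventral SKPs -2.16 (SE 0.35, adjusted p = 0.00562), and facial minus ventral SKPs was -0.29 (95% interval -1.06 to 0.48). The first of these lost its call without dorsal array 2 (0.0546), dorsal array 3 (1.64, adjusted p = 0.0815), facial array 1 (0.0525), facial array 2 (0.0638) or facial array 3 (0.107), and ran from 0.00254 to 0.107 over the alternatives. The difference between dorsal and ventral SKPs held without dorsal array 3 (-1.93, adjusted p = 0.0159).

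Col17a1, the hemidesmosomal collagen that anchors basal keratinocytes, was higher in ventral SKPs than in the other groups. It stood at 5.49, 5.33 and 5.59 in facial SKPs, 5.53, 5.43 and 5.18 in dorsal SKPs and, on the 3 ventral arrays, 6.73, 6.31 and 6.60, against an MSC range of 5.23 to 5.6. The 3 ventral arrays lay above the other 10. Facial minus ventral SKPs was -1.07 (SE 0.15, adjusted p = 0.00174), dorsal minus ventral SKPs -1.17 (SE 0.15, adjusted p = 0.00111) and ventral SKPs minus MSCs 1.06 (SE 0.14, adjusted p = 0.000191). Keratinocyte markers had a mean of 3.29, 3.29 and 3.49 on the ventral arrays. Endothelial markers moved with the same arrays: the mean of 6 genes spanned 3.71 to 4.21 in facial, 3.52 to 3.78 in dorsal and 4.96 to 5.54 in ventral SKPs, and 3.53 to 4.08 in MSCs, and their part in Col17a1 was not tested. Without dorsal array 3, Col7a1 (1.04, SE 0.24, adjusted p = 0.0295) and Col23a1 (0.96, SE 0.22, adjusted p = 0.0316) were also higher in dorsal than in ventral SKPs.

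**Figure D4:**
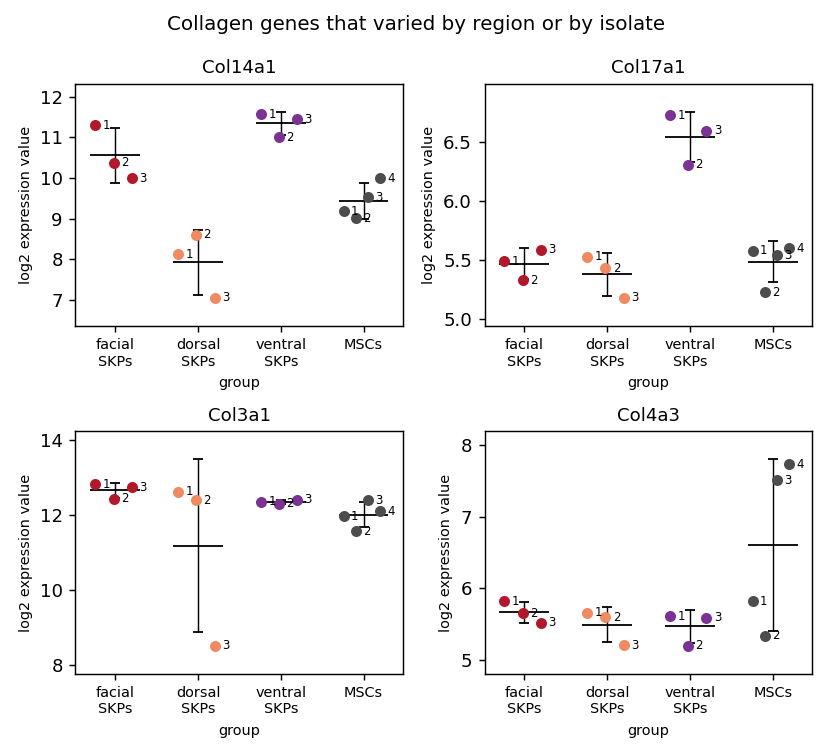
Log2 values are shown by group for 4 collagen genes, with a point for each array and its isolate number, a line at the group mean and bars of 1 SD (n = 3 for each SKP region, n = 4 for MSCs). Col14a1 is low in dorsal SKPs, Col17a1 is high in ventral SKPs, Col3a1 is low on dorsal array 3 (8.51), and Col4a3 is high on MSC arrays 3 and 4 (7.51 and 7.73).

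The isolates of a region differed in how even they were. The median range over the arrays of a group, taken over the 25 collagen genes, was 0.36 in facial, 1.02 in dorsal and 0.31 in ventral SKPs. In MSCs it was 0.78. Over all genes it was 0.29 in facial, 0.38 in dorsal and 0.22 in ventral SKPs, and 0.41 in MSCs. A range over 4 MSC arrays tends to be wider than a range over 3, so MSC and SKP ranges are not compared. A range of at least 1 was found for 1 collagen gene in facial SKPs (Col14a1), 13 in dorsal SKPs, 0 in ventral SKPs and 7 in MSCs. That count was not made over all genes, so nothing particular to collagens is read from it. On dorsal array 3 the largest gaps to the mean of dorsal arrays 1 and 2 were those of Col3a1 (-4.0), Col8a1 (-2.90), Col12a1 (-2.50), Col7a1 (-2.10) and Col5a1 (-2.08). Col1a1 was lower by 1.64 there and Col1a2 by 1.06. The cartilage genes Col9a1 (-0.09), Col9a2 (-0.06), Col10a1 (0.00) and Col11a2 (-0.02) had the smallest gaps.

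Genes that modify, process, crosslink, bind and degrade collagen were read from lists written from general knowledge. Their counts in SKPs minus MSCs stand beside 13.1% of all genes called higher and 12.2% called lower, or 14.3% and 13.5% without dorsal array 3, and with 6 to 13 genes a list, nothing particular to a list is read from a count. Of 13 measured prolyl and lysyl modification genes, 5 fell in SKPs and 1 rose. The lysyl hydroxylase of collagen telopeptides, Plod2, stood at 9.87, 9.16 and 9.37 in facial, 9.38, 8.77 and 9.56 in dorsal and 8.10, 8.73 and 8.16 in ventral SKPs, against 11.18, 10.92, 11.88 and 11.53 in MSCs. It fell by 2.37 (SE 0.21, adjusted p = 9.59e-06), with no overlap. The prolyl hydroxylase subunit P4ha3 fell by 2.28 (SE 0.30, adjusted p = 0.000184) and P4ha2 by 0.89 (SE 0.14, adjusted p = 0.00062). Plod1, which hydroxylates the helix, rose by 0.56 (SE 0.13, adjusted p = 0.00781). Of 9 genes for procollagen folding and export 3 fell: the transcription factor Creb3l1 (-0.66) and the COPII coat genes Sec13 (-0.50) and Sec24d (-0.45). Leaving out dorsal array 3 gave 6 lower and 1 higher among the modification genes and again 3 lower among those of folding and export.

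Crosslinking enzymes split. Of 6 measured genes, 2 fell and 1 rose, and 3 fell and 1 rose without dorsal array 3. Loxl2, a lysyl oxidase active on basement membrane collagen, stood at 6.72, 6.30 and 6.30 in facial SKPs, 6.69, 6.33 and 6.04 in dorsal SKPs and 9.24, 8.33 and 8.72 in ventral SKPs, against 9.20, 8.97, 10.66 and 10.27 in MSCs. It fell by 2.59 (SE 0.30, adjusted p = 6.62e-05) over the regions, and ventral array 1 overlapped with MSCs. In ventral SKPs alone (mean 8.76, against 9.78 in MSCs) Loxl2 was not called. Facial minus ventral SKPs was -2.32 and dorsal minus ventral SKPs -2.41, both called. Transglutaminase 2 (Tgm2) rose by 3.15 (SE 0.22, adjusted p = 1.27e-06), with 7.79 to 8.73 on all SKP arrays but dorsal array 3 (6.67), against 4.81 to 5.44 in MSCs. Lox, the lysyl oxidase of fibrillar collagen, fell by 3.66 (SE 0.51, adjusted p = 0.000253), and its dorsal values were 8.80, 8.0 and 5.13, with dorsal array 3 lowest.

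Of 6 measured genes of propeptide cleavage, 2 fell and 1 rose. The procollagen C-proteinase Tll1 fell by 3.56 (SE 0.68, adjusted p = 0.00228). Its dorsal values (9.02, 6.33 and 8.11) overlapped with MSCs (8.09, 8.41, 11.02 and 11.25), and in dorsal SKPs alone it was not called. The relative of Tll1, Bmp1, rose by 0.84 (SE 0.25, adjusted p = 0.0298). Without dorsal array 3, 1 fell and 1 rose. Of 12 fibril regulators 4 rose and 2 fell, with and without that array, and 1 of those called higher, Kera, lay below background in dorsal SKPs, ventral SKPs and MSCs. Decorin (Dcn), which spaces collagen fibrils, rose by 7.55 (SE 0.59, adjusted p = 3.15e-06), with 11.34 to 13.53 in SKPs, against 7.16, 6.19, 4.59 and 3.1 in MSCs, the last below background. Lumican (Lum), a keratan sulphate proteoglycan of collagen fibrils, stood between 7.64 and 11.43 in SKPs, against 8.70, 6.58, 4.16 and 4.06 in MSCs, where array 1 overlapped. Its difference was 3.87 (SE 0.82, adjusted p = 0.00419), and in facial SKPs alone (mean 8.64, against 5.87 in MSCs) it was not called. Osteoglycin (Ogn) fell by 4.82 (SE 0.49, adjusted p = 2.96e-05), with dorsal array 3 (3.35) below background and ventral values (4.08 to 4.36) close to it.

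Receptors for collagen rose in 3 of 9 cases and fell in 3, with and without dorsal array 3. The integrin subunits that bind collagen parted. Itga11 fell by 5.43 (SE 0.49, adjusted p = 9.59e-06), with facial (4.04 to 4.57) and ventral values (4.01 to 4.32) close to background (3.94 and 3.90). Itga10 rose by 1.74 (SE 0.30, adjusted p = 0.00111), with overlap through dorsal array 3 (4.59, against 4.43 to 4.87 in MSCs). The kinase receptor Ddr1 fell by 0.67 (SE 0.18, adjusted p = 0.0157), and the uptake receptor Mrc2 rose by 0.97 (SE 0.28, adjusted p = 0.0235). Of 12 measured genes of collagen degradation and its inhibitors, 9 rose, against 13.1% of all genes called higher, and 10 without dorsal array 3, against 14.3%. The list's median difference was 1.43, against -0.017 over all genes. The collagenase Mmp13 stood at 12.01 to 13.37 in SKPs, against 5.92, 3.37, 3.49 and 3.86 in MSCs, and MSC arrays 2, 3 and 4 lay below the background of 4.02. Its fitted difference of 8.44 (SE 0.42) therefore rests on MSC values mostly not above background. The inhibitor Timp3 rose by 4.51 (SE 0.32), the gelatinase Mmp9 by 3.35 (SE 0.36) and the fibroblast protease Fap by 2.59 (SE 0.36), with Fap below background on MSC array 3. Mmp1 stood at 4.41 to 6.63 in SKPs and was not above background on any MSC array (2.70 to 3.08), so no size is given for its difference. The other 4, named like Mmp1 after their values were seen, were Mmp2 (1.78), Mmp14 (1.07), cathepsin K (Ctsk, 1.02) and the inhibitor Timp2 (0.55). Timp3 also differed by region, at 10.06, 10.04 and 9.71 in facial SKPs, 7.68, 8.07 and 6.43 in dorsal SKPs and 10.39, 9.61 and 10.77 in ventral SKPs, against 4.06, 4.47, 5.41 and 4.79 in MSCs. Dorsal SKPs lay below the other regions and above MSCs.

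**Figure D5:**
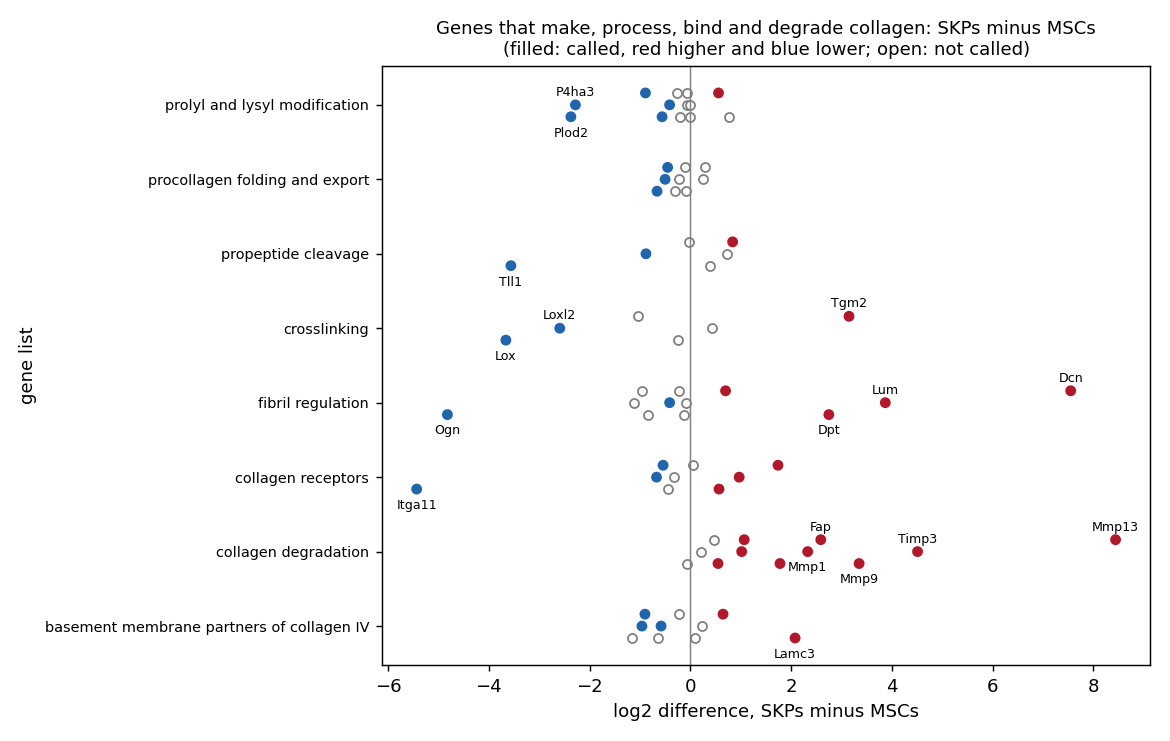
Each point is a gene of 8 lists that make, process, bind or degrade collagen, placed at its log2 difference of SKPs minus MSCs, with filled points called at an adjusted p under 0.05 (red higher, blue lower) and names for called genes with a difference of at least 2 in size. Degradation genes lie mostly to the right, up to Mmp13 at 8.44, where Mmp1 on all MSC arrays and Mmp13 on 3 of the 4 were not above background, and Plod2, P4ha3, Lox, Loxl2 and Itga11 lie to the left.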

How the data were processed

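The data are 13 arrays, each of RNA from 1 cultured isolate. The deposited values are log2 intensities; per the submitters' processing notes, RMA in Affymetrix Expression Console was used, with limma, and no version is given there. Of 29215 probe sets, 15310 carried 1 symbol (323 several, 13582 none), which gave 14506 genes after symbols were updated through the RefSeq table (15279 by Entrez ID, 6 by accession, 25 kept). Array medians lay between 4.91 and 5.01, and precision is limited by how many arrays there are. The files gave no slide or scan batch.

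Groups came from the sample titles. A single fit over all 4 groups was made with limma 3.58.1 in R 4.3.3, with Benjamini-Hochberg adjustment over all 14506 genes in each of 7 comparisons and a threshold of 0.05. SKPs minus MSCs is the mean of the 3 region means minus MSCs. The fit was tested on simulated data. Each isolate was treated as independent in the fit, and whether isolates shared rats is not known from the sources used here. The p-values set a difference against the spread between isolates, pooled over the 4 groups and moderated across genes.

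The collagen members and the lists were chosen with earlier results of these data known. Full statistics were given for Col1a1, Col1a2, Col3a1, Col4a1 and called members with a difference of at least 1, and for up to 4 called genes of each list by size. Further members were named after their values were seen. Alternatives were leaving out each of 13 arrays, the sample number as a block, an intensity trend with robust variance, array weights, a background filter, fits of the compared groups alone, the mean of probe sets, repeated quantile normalization and a fold threshold. The counts of the gene lists without dorsal array 3 were added after seeing the data. Promoters came from the RefSeq table of GRCr8.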

Additional observations from a re-analysis of the deposited data

Results flagged for a closer look

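Col14a1, a fibril-associated collagen, differed between skin regions in the same contrast against MSCs. Dorsal minus ventral SKPs was -3.41 (SE 0.41, limma adjusted p = 0.000926), while dorsal SKPs lay below MSCs (-1.50) and ventral SKPs above them (1.91), each by the same fit. The dorsal call against MSCs was lost without dorsal array 3 (-1.06, adjusted p = 0.0724). Col17a1 on MSC array 2, at 5.23, stood apart from the other MSC arrays (5.54 at the lowest) by Dixon's test at the 95% level. Col17a1 was the 1 gene of 25 so marked in the 4 MSC arrays, where chance marks about 1 in 20.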

How the results depend on the processing

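The number of collagen genes called changed with the arrays and the fit used. Over the 13 arrays left out in turn, SKPs minus MSCs gave 5 to 12 calls (main value 6), facial SKPs minus MSCs 3 to 8 (5), dorsal SKPs minus MSCs 4 to 8 (7) and ventral SKPs minus MSCs 7 to 9 (8). Facial minus dorsal SKPs gave 1 to 2 (2), facial minus ventral SKPs 1 to 1 (1) and dorsal minus ventral SKPs 3 to 5 (3). The highest count for SKPs minus MSCs, 12, came without dorsal array 3. Array weights gave 9 calls for facial SKPs minus MSCs. Fits of the compared groups alone gave 3 calls for dorsal SKPs minus MSCs and 4 for facial minus ventral SKPs. For facial minus dorsal SKPs that fit gave 0 calls by limma, with 3 members at an unadjusted p under 0.05, and fewer arrays enter it by construction. Among 35 differences of named genes, 700 recomputations gave 634 with the same direction and call, 59 that lost the call, 3 that gained it and 4 with the opposite sign. Those 4 were all of Col3a1 in SKPs minus MSCs, which spanned -0.19 to 0.50 over the arrays left out and was -0.05 after repeated quantile normalization. The cause of these changes was not tested. All but Col1a1, Col1a2 and Col3a1 in SKPs minus MSCs were chosen because they were called in the main fit. Some recomputations could not move a difference. None of these genes has several probe sets, so their mean changed nothing, and an array outside a comparison does not enter its difference. The 634 is thus not a measure of how firm the calls are.

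Sample numbers are not said to mark a shared animal or day, and no pairing was used in the main fit. Of 18 correlations between same-numbered arrays, 1 was over 0.1, and they ran from -0.122 to 0.199. With so few arrays a group, low correlations cannot exclude a pairing. With the number as a replicate block the counts were 6 for SKPs minus MSCs, 3 for facial, 4 for dorsal and 7 for ventral SKPs minus MSCs, and 1, 1 and 3 for facial minus dorsal, facial minus ventral and dorsal minus ventral SKPs.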

Other observations

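Other genes around collagen were also measured. Of 11 genes for transcription factors of collagen genes, 3 fell in SKPs and 1 rose, with and without dorsal array 3. These counts, and those below, stand beside 12.2% of all genes called lower and 13.1% called higher in SKPs minus MSCs, or 13.5% and 14.3% without that array. The tendon factor Scx fell by 1.45 (SE 0.11, limma adjusted p = 2.52e-06), with 4.72 to 5.86 in SKPs, against 6.85, 7.01, 6.89 and 6.64 in MSCs. The cartilage factor Sox5 fell by 1.32 (SE 0.26, adjusted p = 0.00282) and Nfib by 1.29 (SE 0.27, adjusted p = 0.00373). The bone factor Runx2 rose by 0.82 (SE 0.10, adjusted p = 0.000137), with no overlap between SKPs and MSCs.

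Of 10 basement membrane partners of collagen IV, 2 rose and 3 fell, and 2 rose and 4 fell without dorsal array 3. The laminin chain Lamc3 rose by 2.08 (SE 0.35, adjusted p = 0.000946) and agrin (Agrn) by 0.65 (SE 0.10, adjusted p = 0.000725). The laminin chains Lamb3 and Lama3, parts of the laminin under epithelia, fell by 0.96 (SE 0.24, adjusted p = 0.0111) and 0.90 (SE 0.13, adjusted p = 0.000441). Lamb3 lay close to background in SKPs (3.85 to 4.44). Of 7 chondrocyte markers, 2 fell and 1 rose, and of 7 osteoblast markers 2 rose.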
